A study of Mus musculus with 48 samples.

Results

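The 9 genes described here mark immune cells that can lie among gonadal somatic cells (GSCs). Ptprc, Csf1r, C1qa, C1qb, Lyz2 and Cd68 are used as genes of leukocytes and macrophages, and Tpsb2, Cpa3 and Cma1 as genes of mast cells. They were chosen by symbol, with earlier results of these data known, and all 9 were found among the 22173 genes counted in GSCs of 4 stages. Of the 13682 genes in the FPKM table of the cell cultures, 6 were members, and the 3 mast cell genes were not among the genes listed there. All 9 were matched by Ensembl ID among the 32285 genes of a 10x single-cell table.

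The study followed female mouse gonads and the induction of cells resembling GSCs (GSCLCs) from a female line of embryonic stem cells (ESCs), and every sample carried the strain label C57BL/6. GSCs were separated from female gonads of embryos at E12.5, E13.5 and E16.5, named by embryonic day, and from ovaries of mice 6 weeks after birth (P6w), with 2 libraries per stage. E12.5 cells were the fraction left after magnetic removal of SSEA1-positive cells, and the study also describes magnetic sorting for single-cell work at E13.5, whereas how E16.5 and P6w cells were purified is not given in the sources used here. In the cultures, ESCs freed of feeder cells by their faster adherence were left without compound (Con), or given vitamin C (Vc), the retinoic acid receptor agonist AM580, or both (V580). Con, Vc, AM580 and V580 were sampled at 24 h and 48 h in 2 libraries each, V580 at days 4, 6, 8 and 10 in 3 libraries each, and cells of E12.5 female gonads (E12.5_GC) in 3 libraries. Day 6 of V580 was also measured in 10x single cells, which the study describes as done in triplicate. The 1 matrix analysed here holds no map from cells to separate runs and is treated as 1 sample. Nothing in the labels says whether replicates came from separate litters or cultures, so that the p-values below measure the spread between these libraries.

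Macrophages enter embryonic organs early, first from the yolk sac, and stay as tissue-resident cells that engulf dying cells and pathogens. Their survival rests on the receptor Csf1r and its ligands Csf1 and Il34. Mast cells arise from blood progenitors, mature within tissues under Kit ligand (Kitl), and store proteases in granules. Ptprc encodes CD45, a tyrosine phosphatase on the surface of nucleated blood cells. C1qa and C1qb encode chains of the complement protein C1q, Lyz2 encodes lysozyme M, which cleaves bacterial cell walls, and Cd68 encodes a glycoprotein of the lysosome and endosome. Tpsb2, Cma1 and Cpa3 encode a tryptase, a chymase and carboxypeptidase A3 of the mast cell granule.

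On the GRCm38 assembly all mapped members were protein coding. C1qa (chr4:136895917-136898803) and C1qb (chr4:136880129-136886187) lie on the minus strand on both sides of C1qc, the gene of the remaining C1q chain. Cpa3 spans chr3:20215620-20242181 on the minus strand, and Cma1 spans chr14:55941451-55944675 on the minus strand, in a cluster of mast cell protease genes that includes Cma2 and Mcpt4. Tpsb2 (chr17:25366305-25369098, plus strand) lies beside its paralogue Tpsab1, and Lyz2 (chr10:117277331-117282321, minus strand) beside its paralogue Lyz1, so that reads shared by these pairs could have been split or lost in counting. Ptprc lies at chr1:138062861-138175708 and Cd68 at chr11:69664213-69666153, both on the minus strand. The library kit is not described as keeping strand, so reads of an overlapping antisense gene could not be told apart.

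The promoters of Cpa3, Cma1 and C1qb are shown as examples of members that carry the stage patterns described below. A RefSeq entry (GRCm38.p6) was found for 6 of the 9 members and not for Csf1r, C1qa or Tpsb2. Each window holds 250 bases before and 50 bases after the gene start, written 5′ to 3′ on the gene's strand, and capitals mark the motifs searched on both strands. These were GATAA (GATA factors), GAGGAA (PU.1, the product of Spi1) and CATGTG (an E-box read by Mitf), and no motif overlapped another in these windows.
Cpa3 (chr3:20242132-20242431, minus strand): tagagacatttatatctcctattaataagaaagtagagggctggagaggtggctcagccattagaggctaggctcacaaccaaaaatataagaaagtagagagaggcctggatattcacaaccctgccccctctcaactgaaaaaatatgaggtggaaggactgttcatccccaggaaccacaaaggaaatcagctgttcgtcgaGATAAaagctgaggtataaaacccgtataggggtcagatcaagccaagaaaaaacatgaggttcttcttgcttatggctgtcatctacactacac
Cma1 (chr14:55944626-55944925, minus strand): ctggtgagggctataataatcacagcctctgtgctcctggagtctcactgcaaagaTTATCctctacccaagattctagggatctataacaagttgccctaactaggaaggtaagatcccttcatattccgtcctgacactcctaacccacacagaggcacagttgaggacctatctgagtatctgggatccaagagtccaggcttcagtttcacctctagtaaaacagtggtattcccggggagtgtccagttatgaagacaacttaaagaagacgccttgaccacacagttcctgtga
C1qb (chr4:136886151-136886450, minus strand): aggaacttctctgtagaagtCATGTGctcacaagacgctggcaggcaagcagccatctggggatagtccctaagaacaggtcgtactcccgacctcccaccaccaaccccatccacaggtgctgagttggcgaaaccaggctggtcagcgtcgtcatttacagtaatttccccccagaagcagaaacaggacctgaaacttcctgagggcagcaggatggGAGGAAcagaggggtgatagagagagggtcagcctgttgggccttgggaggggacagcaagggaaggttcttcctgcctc
Cpa3 held 1 GATA match at -45 from the start, and Cma1 held 1 at -194. C1qb held 1 PU.1 match at -30 and 1 E-box match at -230. Of the members with an entry that are not shown, Lyz2 held no match, and Cd68 held 2 PU.1 matches, at -225 and 29. Ptprc held 2 GATA matches at -99 and -24 in 1 entry and 1 PU.1 match at -158 in another. Among 32851 mouse promoters of the same length, 25.4% held the GATA letters, 28.3% the PU.1 letters and 14.2% the E-box letters. A match describes letters only, and binding at these sites was not measured.

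Library totals ranged from 12694769 to 22259044 counts over the 8 GSC libraries. The summed level of 6 gonadal somatic markers (Gata4, Wt1, Nr5a1, Lhx9, Emx2 and Tcf21) was 1360 and 1386 CPM (counts-per-million, on library sizes scaled by TMM) at E12.5, 876 and 883 CPM in E13.5 cells, 754 and 722 CPM at E16.5, and 521 and 472 CPM at P6w. Other cell types also moved with stage. The 5 erythroid markers summed to 13943 and 12667 CPM at E12.5, 24939 and 23657 CPM in E13.5 cells, 5330 and 3311 CPM at E16.5, and 108 and 124 CPM at P6w. The 6 germ cell markers summed to 10.6 and 8.79 CPM at E12.5 and to 104 and 134 CPM at E16.5, and the 6 interstitial markers to 865 and 919 CPM at E12.5 and to 3176 and 2827 CPM at E16.5. The part of these shifts in the results below was not tested, and in bulk samples fewer cells of a type and less RNA per cell cannot be told apart. E12.5, E13.5 and E16.5 replicate 1 carried lane 5 in their labels, and E16.5 replicate 2 and both P6w libraries lane 1. The pair of E16.5 libraries differed most from each other, with a chi-square per degree of freedom of 35.9 over genes against 5.57 to 6.63 at the other stages.

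The mast cell members rose and fell with stage. At E16.5 Tpsb2 and Cma1 were the highest members by CPM, whereas both had few counts at E12.5 and at P6w. Tpsb2 had 1 and 1 counts at E12.5, 93 and 29 in E13.5 cells, 5677 and 3954 at E16.5, and 30 and 31 at P6w. These counts correspond to 0.0463 and 0.0494 CPM at E12.5, 4.72 and 1.65 in E13.5 cells, 245.7 and 242.0 at E16.5, and 2.45 and 2.58 at P6w. Neither E16.5 library came near any other library, and only the E13.5 and P6w libraries overlapped.

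Cma1, whose chymase cleaves angiotensin and matrix proteins, had 10 and 7 counts at E12.5, 358 and 183 in E13.5 cells, 5563 and 4255 at E16.5, and 19 and 10 at P6w. In CPM these were 0.463 and 0.346, then 18.2 and 10.4, then 240.8 and 260.4, and then 1.55 and 0.832. Cpa3, an exopeptidase of the same granules, had 12 and 13, 37 and 49, 813 and 329, and 2 and 5 counts in the same order of stages. Its levels were 0.556 and 0.642 CPM at E12.5, 1.88 and 2.79 in E13.5 cells, 35.2 and 20.1 at E16.5, and 0.163 and 0.416 at P6w. The 4 stages did not overlap for either gene, and for Cpa3 the E16.5 pair lay farther apart than for Tpsb2 or Cma1.

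**Figure D1:**
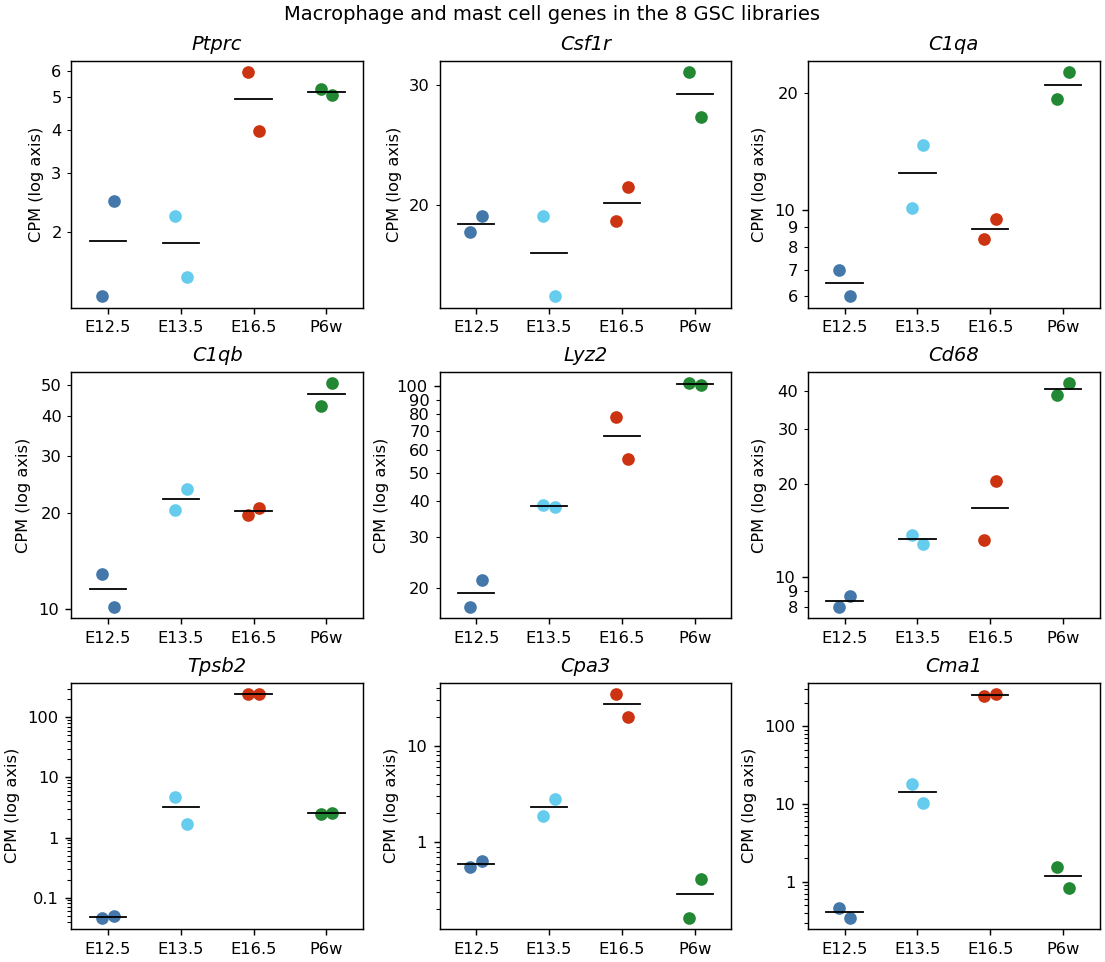
Level of each of the 9 members in CPM (log axis) in the 8 GSC libraries. Points are libraries, with 2 per stage, and horizontal bars are stage means. Tpsb2, Cpa3 and Cma1 are highest in both E16.5 libraries, and C1qa, C1qb, Lyz2, Cd68 and Csf1r in both P6w libraries.

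By edgeR's quasi-likelihood test, called at an adjusted p under 0.05, 7 members were higher and 0 lower at E16.5 than at E12.5, where 37.6% of all tested genes were called, 20.5% higher and 17.1% lower. The log2 fold change was 12.12 (SE 0.44, adjusted p = 2.94e-10) for Tpsb2, 9.24 (SE 0.32, adjusted p = 2.40e-10) for Cma1 and 5.52 (SE 0.37, adjusted p = 4.76e-08) for Cpa3. Because Tpsb2 rested on 2 counts at E12.5, its ratio of E16.5 to E12.5 was also taken from the summed counts and came to 5107 (exact 95% interval 1413 to 42175, counting error only). For Cma1 the same ratio was 612 (382 to 1052). The median log2 fold change was 1.41 over the 9 members and -0.01 over all 16398 tested genes.

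E13.5 already stood above E12.5 for all 3 mast cell genes. The log2 fold change from E12.5 was 5.89 for Tpsb2 (SE 0.68, adjusted p = 1.36e-05), 5.12 for Cma1 (SE 0.34, adjusted p = 2.09e-07) and 1.95 for Cpa3 (SE 0.42, adjusted p = 0.00161). In counts the Tpsb2 ratio was 68.6 (18.6 to 572). In this comparison 7 members were higher and 0 lower against a background of 45.9% called, 23.8% higher and 22.1% lower, with a median of 0.93 over members and 0.03 over all genes. Fold changes between these stages followed gene length across all genes (Spearman's rho = -0.494 over 16169 genes with a length), shorter genes being higher at E13.5. With a length term fitted per library, the calls for the 3 mast cell genes held, whereas C1qa, C1qb, Lyz2 and Cd68 were no longer called and Cd68 turned to -0.04. The Cd68 call was also lost without E12.5 replicate 1, E12.5 replicate 2 or E13.5 replicate 1 (adjusted p = 0.107, 0.0568 and 0.0671), and that of C1qa without E13.5 replicate 2 (log2 0.66, adjusted p = 0.0551).

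From E16.5 to P6w all 3 mast cell genes fell. The change was -6.60 on the log2 scale for Tpsb2 (SE 0.30, adjusted p = 8.49e-11), -7.70 for Cma1 (SE 0.29, adjusted p = 1.51e-11) and -6.55 for Cpa3 (SE 0.45, adjusted p = 9.74e-09), or 100.3-fold in summed counts of Cpa3 (48.5 to 250.1). Between these stages 5 members were higher and 3 lower, against backgrounds of 26.3% higher and 29.8% lower and 56.1% called in all. P6w also differed from E12.5, with Tpsb2 higher by 5.52 (SE 0.76, adjusted p = 2.01e-05) and Cma1 by 1.54 (SE 0.54, adjusted p = 0.0264). Cpa3 was at -1.03 (SE 0.68, adjusted p = 0.218), which did not pass the test. In order of level, each of Cma1 and Cpa3 ran E16.5, E13.5 and then the other 2 stages, and the P6w and E12.5 levels of Cpa3 did not differ beyond the spread. For Tpsb2 the neighbours E13.5 and P6w did not differ beyond theirs (log2 -0.37, SE 0.36, adjusted p = 0.394), a value that was -0.93 (adjusted p = 0.00499) without E13.5 replicate 2 and 0.58 (adjusted p = 0.121) without E13.5 replicate 1. The Cma1 difference between P6w and E12.5 was 1.35 (adjusted p = 0.0934) without E12.5 replicate 2, 1.01 (adjusted p = 0.305) without P6w replicate 1 and 1.43 (adjusted p = 0.0818) with lane as a term.

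**Figure D2:**
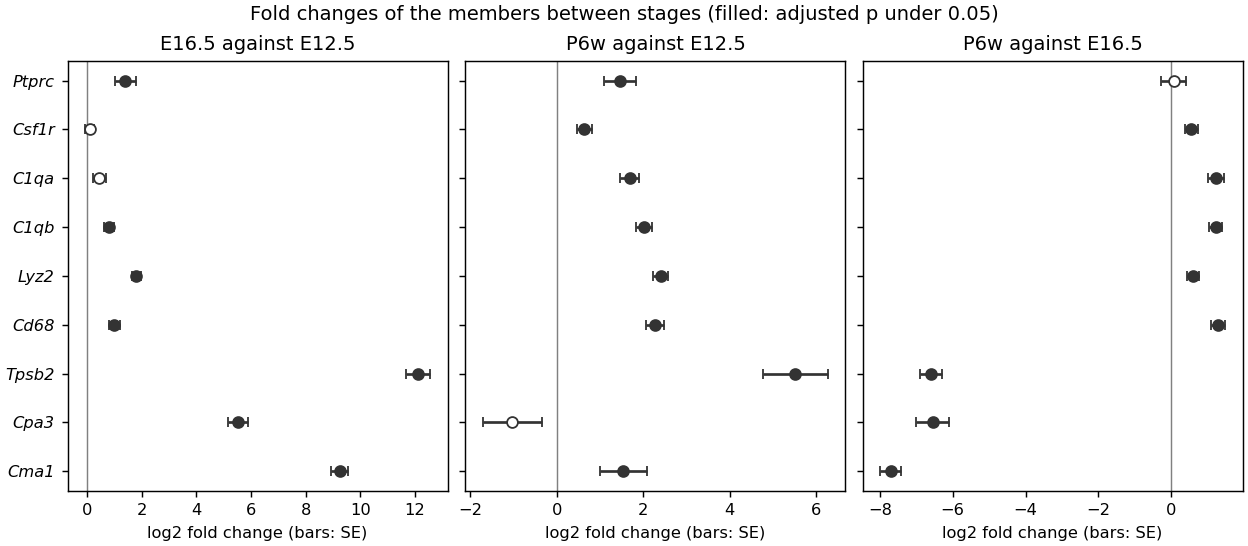
Log2 fold change of each member with its standard error (SE) between E16.5 and E12.5, P6w and E12.5, and P6w and E16.5. Filled points passed the edgeR test at an adjusted p under 0.05. The mast cell genes lie far to the right at E16.5 against E12.5 and far to the left at P6w against E16.5, while the macrophage genes lie within 2.41 of 0 in all 3 panels.

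Of the 23 other mast cell genes in the list used here, 17 had enough counts to be tested. At E16.5 against E12.5 13 were higher, 0 lower and 4 not called (median log2 fold change 2.52). Of all tested genes 20.5% were higher and 17.1% lower there. Between P6w and E16.5 3 were higher, 13 lower and 1 not called, with a median of -3.10, where 26.3% of all tested genes were higher and 29.8% lower. For 5 of the 17, Mcpt4, Tpsab1, Mcpt2, Mcpt8 and Tph1, E16.5 alone had enough counts in both libraries to pass the filter on low counts. For Rgs13 P6w alone did. This fixed their direction, so that these counts and medians are a description only. The sum of 8 mast cell markers, which includes the 3 members, was 9.54 and 14.1 CPM at E12.5, 38.8 and 26.8 in E13.5 cells, 575 and 567 at E16.5, and 18.1 and 19.2 at P6w. The 23 other mast cell genes, without the members, summed to 61.8 and 68.6 CPM at E12.5 and 96.0 and 91.5 in E13.5 cells. Their sum was 194 and 188 CPM at E16.5 and 184 and 198 CPM at P6w, so that these stages overlapped. Fcer1a, a chain of the IgE receptor, had 0 and 1 counts at E12.5, 0 and 9 in E13.5 cells, 2 and 0 at E16.5, and 0 and 0 at P6w.

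Tpsab1, the paralogue of Tpsb2, had 171 and 85 counts at E16.5, 2 and 2 at E13.5, and 0 in each E12.5 and P6w library. Mcpt4, a chymase from the same gene cluster as Cma1, had 89 and 18 counts at E16.5 and 0 in the other 6 libraries. Hdc, which makes histamine, was at 3.24 and 6.62 CPM at E12.5 and 38.3 and 31.6 CPM at E16.5 (log2 2.83, SE 0.28, adjusted p = 1.82e-06). Gata1, a transcription factor of erythroid cells, megakaryocytes and mast cells, was at 8.25 and 9.88 CPM at E12.5, 40.6 and 37.8 at E13.5, and 49.1 and 54.8 at E16.5 (log2 2.52 for E16.5 against E12.5, SE 0.17, adjusted p = 3.82e-08). Gata1 was already higher at E13.5 (log2 2.11, SE 0.16, adjusted p = 8.81e-07), when the erythroid markers were at their highest. Srgn, the core protein that binds proteases in granules, rose by 2.68 (SE 0.21, adjusted p = 1.72e-07) from E12.5 to E16.5.

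Some genes of the list had another course. Slc18a2, a vesicular monoamine transporter, was at 82.8 and 91.3 CPM at P6w against 10.1 and 6.97 at E12.5 (log2 3.34, SE 0.21, adjusted p = 3.84e-09). Mitf, a transcription factor of mast cells and melanocytes, was higher at P6w than at E12.5 by 2.65 (SE 0.28, adjusted p = 1.12e-06). Rgs13, a regulator of G protein signalling, had 0 and 1 counts at E12.5 and 409 and 486 at P6w. Tpsg1, a further tryptase, fell by 2.07 (SE 0.32, adjusted p = 6.43e-05) over the same interval. Slc18a2, Mitf and Rgs13 were thus highest at P6w, where Tpsb2, Cpa3 and Cma1 were far below E16.5.

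The macrophage members took another course, with their highest mean levels at P6w. Lyz2 was at 17.2 and 21.3 CPM at E12.5, 38.9 and 38.2 in E13.5 cells, 78.5 and 56.2 at E16.5, and 102.8 and 101.4 at P6w. Every stage lay above the one before with no overlap, and the log2 fold change from E12.5 to P6w was 2.41 (SE 0.17, adjusted p = 1.42e-08). Cd68 was at 8.01 and 8.70 CPM at E12.5, 13.7 and 12.8 in E13.5 cells, 13.2 and 20.4 at E16.5, and 38.8 and 42.4 at P6w. The E13.5 and E16.5 libraries of Cd68 overlapped, and their difference of 0.33 (SE 0.20, adjusted p = 0.18) did not pass the test. It rested on 1 library, being 0.62 (adjusted p = 0.00739) without E16.5 replicate 1 and -0.00234 (adjusted p = 0.996) without E16.5 replicate 2. With a length term it was 0.89 (adjusted p = 0.00107). From E12.5 to P6w Cd68 rose by 2.28 (SE 0.21, adjusted p = 2.40e-07).

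The C1q genes moved with each other. C1qb was at 12.9 and 10.2 CPM at E12.5, 20.4 and 23.7 in E13.5 cells, 19.7 and 20.7 at E16.5, and 42.9 and 50.7 at P6w. C1qa was at 6.99 and 5.98, 10.1 and 14.7, 8.40 and 9.43, and 19.2 and 22.6 CPM in the same order. P6w exceeded E12.5 by 2.02 for C1qb (SE 0.18, adjusted p = 1.71e-07) and by 1.68 for C1qa (SE 0.22, adjusted p = 1.50e-05). At E16.5 C1qb was above E12.5 by 0.80 (SE 0.18, adjusted p = 0.00232), and C1qa by 0.45 (SE 0.23, adjusted p = 0.13), which did not pass. E13.5 and E16.5 did not differ beyond the spread for C1qb (log2 -0.13, SE 0.17, adjusted p = 0.557) or C1qa (log2 -0.47, SE 0.22, adjusted p = 0.0807). Fold changes between these stages also followed gene length (Spearman's rho = 0.335 over 16169 genes), and with the length term the differences turned to 0.47 for C1qb (adjusted p = 0.0254) and 0.12 for C1qa (adjusted p = 0.646). Without E13.5 replicate 1 the C1qa difference was -0.73 (adjusted p = 0.0231), and without E12.5 replicate 2 the C1qb difference between E16.5 and E12.5 was 0.64 (adjusted p = 0.0547). C1qc, their neighbour, was at 8.01 and 9.59 CPM at E12.5 and 30.5 and 36.8 CPM at P6w, a log2 change of 1.93 (SE 0.19, adjusted p = 4.91e-07).

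Csf1r had the smallest difference between E12.5 and P6w among the macrophage members. It was at 18.3 and 19.3 CPM at E12.5, 19.3 and 14.7 in E13.5 cells, 19.0 and 21.2 at E16.5, and 31.4 and 27.0 at P6w. The 3 embryonic stages overlapped, and E16.5 stood 0.10 above E12.5 (SE 0.18, adjusted p = 0.701). P6w exceeded E12.5 by 0.64 (SE 0.18, adjusted p = 0.0072) and E16.5 by 0.54 (SE 0.18, adjusted p = 0.0175). With lane as a term these differences were 0.47 (adjusted p = 0.192) and 0.46 (adjusted p = 0.0572) and did not pass, and lane 1 held both P6w libraries and only E16.5 replicate 2 beside them. Without P6w replicate 1 they were 0.51 (adjusted p = 0.0865) and 0.41 (adjusted p = 0.158). The first was 0.59 (adjusted p = 0.0653) without E12.5 replicate 1, and the second 0.46 (adjusted p = 0.0559) without E16.5 replicate 1.

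Ptprc had few counts. It had 28 and 50 at E12.5, 44 and 26 in E13.5 cells, 137 and 65 at E16.5, and 65 and 61 at P6w, or 1.30 and 2.47, 2.24 and 1.48, 5.93 and 3.98, and 5.31 and 5.08 CPM. E16.5 exceeded E12.5 by 1.41 (SE 0.37, adjusted p = 0.00782) and P6w exceeded it by 1.47 (SE 0.38, adjusted p = 0.00441). Both calls were lost without E12.5 replicate 1 (log2 1.01, adjusted p = 0.109, and 1.07, adjusted p = 0.0668), and the first also without E16.5 replicate 1 (log2 1.08, adjusted p = 0.0568). E16.5 and P6w did not differ beyond the spread (log2 0.06, SE 0.35, adjusted p = 0.903), nor did E12.5 and E13.5 (log2 -0.01, SE 0.40, adjusted p = 0.993).

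At P6w against E12.5 8 of the 9 members were higher and 0 lower, where 52.9% of all tested genes were called, 25.4% higher and 27.5% lower. Their median was 1.68 against -0.04 over all genes. P6w against E13.5 had 6 members higher and 2 lower, with backgrounds of 59.7% called, 28.7% higher and 31% lower. There the C1qa difference of 0.76 was not called without E13.5 replicate 1 (0.49, adjusted p = 0.113), without P6w replicate 2 (0.64, adjusted p = 0.0719) or with lane as a term (0.59, adjusted p = 0.179), nor was Csf1r with lane (0.62, adjusted p = 0.0689). E16.5 against E13.5 had 5 higher and 0 lower, with backgrounds of 54.1% called, 28.7% higher and 25.4% lower. Those 5 were the 3 mast cell genes, Lyz2 and Ptprc. With the length term the Ptprc difference was 0.55 (adjusted p = 0.214) and was no longer called.

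Per kilobase of the longest coding transcript, which allows genes to be set side by side, the order changed with stage. At E12.5 Lyz2 was highest with a mean of 14.6 RPKM (CPM divided by that length), ahead of C1qb at 10.6, and the 3 mast cell genes were between 0.0371 and 0.413 RPKM. At E16.5 Cma1 reached 229.9 and Tpsb2 189.2 RPKM, against 51.2 for Lyz2 and 19.1 for Cpa3. At P6w Lyz2 led again with 77.6 RPKM, followed by C1qb at 43.0 and Cd68 at 33.0. Ptprc was at or below 1.02 RPKM at all 4 stages.

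Across the 8 libraries, log2(CPM + 1) of C1qa and C1qb had a Pearson correlation of 0.97, and Tpsb2, Cpa3 and Cma1 correlated with each other at 0.936 to 0.961. Between Csf1r and Tpsb2 the value was 0.0063. These values describe 8 libraries that share 4 stages. Among 12582 other genes with at least 5 CPM in 1 stage, those most like the mean of the 3 mast cell members were Tex13b (r = 0.994), Dcn (0.993), Pdgfrl (0.993), E2f4 (0.992) and Mkrn1 (0.992). Dcn, which encodes the matrix proteoglycan decorin, had stage means of 57.9, 93.8, 284.5 and 65.8 CPM from E12.5 to P6w. Those most like the mean of Ptprc, Csf1r, C1qa and C1qb were Bpifb4 (0.996), Serpinb1a (0.995), Tpp1 (0.994), Ywhah (0.993) and Dazap2 (0.992).

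Among 28 tested macrophage genes other than the members, 14 were higher and 0 lower at E16.5 than at E12.5 (median log2 0.98). Of all tested genes 20.5% were higher and 17.1% lower there. At P6w against E12.5 18 were higher and 1 lower (median 1.20), where 25.4% of all tested genes were higher and 27.5% lower. Cd163, with a mean of 0 CPM at E12.5, passed the filter on low counts only through P6w, which fixed its direction. The 12 macrophage markers, which include the 6 members, summed to 90.1 and 94.1 CPM at E12.5, 159 and 166 in E13.5 cells, 200.3 and 189 at E16.5, and 315 and 327 at P6w. Spi1, which encodes the myeloid transcription factor PU.1, was at 0.973 and 0.494 CPM at E12.5 and 8.96 and 10.4 at E16.5 (log2 3.70, SE 0.46, adjusted p = 2.00e-05), and at 1.14 and 0.832 CPM at P6w. Cd14, a co-receptor for bacterial lipopolysaccharide, rose by 3.39 at E16.5 (SE 0.31, adjusted p = 9.18e-07) and by 2.82 at P6w (SE 0.32, adjusted p = 2.56e-06), both against E12.5. Ctss, a lysosomal protease of antigen-presenting cells, rose by 2.43 at P6w (SE 0.21, adjusted p = 1.11e-07), and Ms4a7, a membrane protein of macrophages, by 1.97 (SE 0.28, adjusted p = 2.91e-05). Cd53, a leukocyte tetraspanin, and Fcer1g, the shared chain of Fc receptors, rose by 2.04 (SE 0.30, adjusted p = 9.02e-05) and 1.65 (SE 0.21, adjusted p = 2.24e-05) at E16.5.

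MHC class II genes, which present antigen, were highest at P6w. All 7 were higher there than at E12.5 (median log2 fold change 3.81), where 52.9% of all tested genes were called and 25.4% were higher. Their sum was 25.7 and 25.2 CPM at E12.5, 43.6 and 53.0 CPM in the E16.5 libraries, and 520 and 518 CPM in the P6w libraries. Cd74, the invariant chain, was at 2.41 and 3.31 CPM at E12.5 and 211 and 198 CPM at P6w (log2 6.16, SE 0.20, adjusted p = 2.40e-12). H2-Aa, H2-Ab1 and H2-Eb1 rose by 4.92 (SE 0.24, adjusted p = 2.57e-10), 4.43 (SE 0.19, adjusted p = 5.59e-11) and 3.81 (SE 0.20, adjusted p = 6.55e-10). At E16.5 4 of the 7 were higher than at E12.5, where 20.5% of all tested genes were higher. Among the 4 were Cd74 by 1.34 (SE 0.20, adjusted p = 0.000121), H2-Ab1 by 1.27 (SE 0.18, adjusted p = 7.48e-05) and H2-DMa by 0.79 (SE 0.20, adjusted p = 0.00569).

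**Figure D3:**
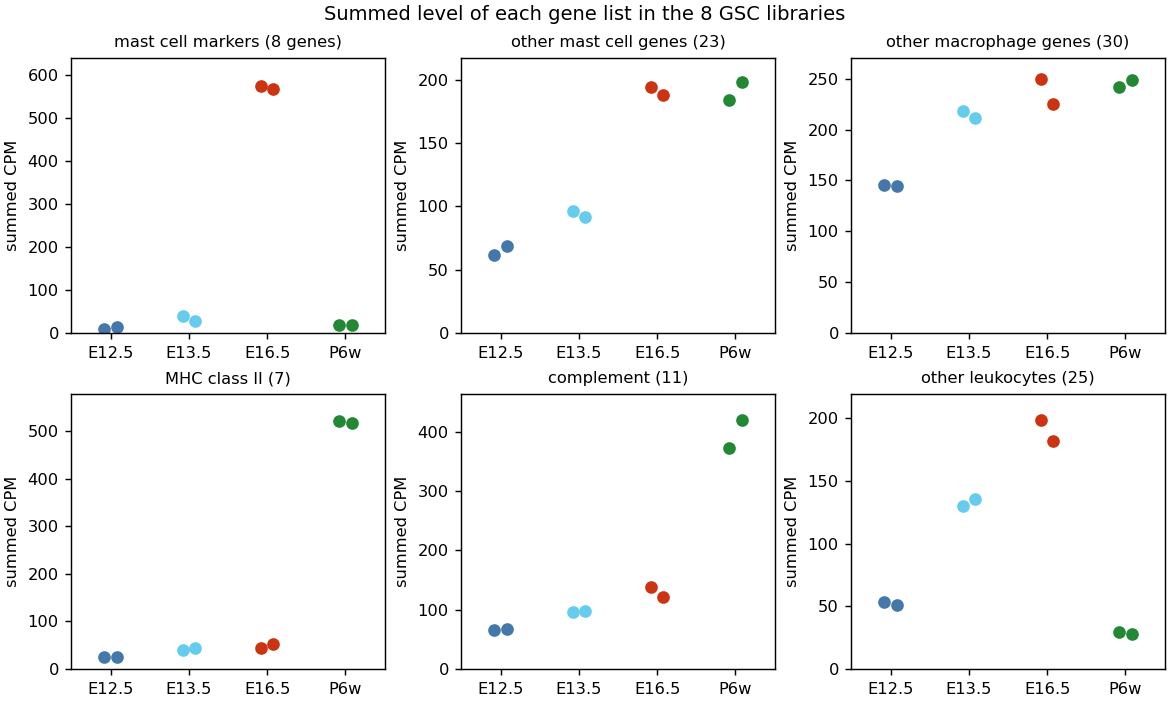
Summed CPM of 6 gene lists in each of the 8 GSC libraries, on linear axes that start at 0, with 2 points per stage. Mast cell markers peak at E16.5 with 575 and 567 CPM, MHC class II genes at P6w with 520 and 518 CPM, and genes of other leukocytes are lowest at P6w. The 23 other mast cell genes are at 194 and 188 CPM at E16.5 and 184 and 198 CPM at P6w.

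Of 11 tested complement genes, which include C1qc but not C1qa or C1qb, 9 were higher and 0 lower at P6w than at E12.5 (median 1.93). Of all tested genes 25.4% were higher and 27.5% lower there. C4b, with a mean of 3.38 CPM at P6w and 0 at E12.5, passed the filter on low counts only through P6w, which fixed its direction. C1s1, a protease of the C1 complex, rose by 3.97 (SE 0.27, adjusted p = 8.37e-09), and C3, the central component, by 2.16 (SE 0.45, adjusted p = 0.000864). At E16.5 7 of the 11 were higher than at E12.5 and 0 lower, where 20.5% of all tested genes were higher and 17.1% lower. Among the 7 were C1s1 by 2.42 (SE 0.27, adjusted p = 6.40e-06), C1ra, which encodes another C1 protease, by 0.96 (SE 0.19, adjusted p = 0.00105), and the receptor gene C3ar1 by 0.99 (SE 0.28, adjusted p = 0.0109).

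The ligands of the receptors on these cells had courses of their own. Kitl, the ligand of Kit, was at 343 and 336 CPM at E12.5, 201 and 206 in E13.5 cells, 334 and 353 at E16.5, and 57.1 and 58.5 at P6w. It did not differ between E16.5 and E12.5 beyond the spread (log2 0.02, SE 0.11, adjusted p = 0.92) and fell by 2.55 from E12.5 to P6w (SE 0.12, adjusted p = 9.22e-11). Csf1 was at 2.96 and 3.36 CPM at E12.5, 1.22 and 0.456 in E13.5 cells, 11.8 and 10.6 at E16.5, and 3.27 and 5.24 at P6w, and rose by 1.83 from E12.5 to E16.5 (SE 0.32, adjusted p = 0.000461). Il34 was at 3.66 and 3.71 CPM at E12.5 and 13.6 and 11.2 CPM at P6w (log2 1.75, SE 0.25, adjusted p = 3.43e-05), and at E16.5 it was higher than at E12.5 by 1.12 (SE 0.25, adjusted p = 0.00278). The chemokine gene Ccl2 rose by 3.56 (SE 0.34, adjusted p = 1.35e-06) and the alarmin gene Il33 by 2.06 (SE 0.29, adjusted p = 7.16e-05) from E12.5 to E16.5.

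Genes of other leukocytes, which share Ptprc and in part Lyz2, were 18 in the test. At E16.5 against E12.5 6 of them were higher and 2 lower, where 37.6% of all tested genes were called, 20.5% higher and 17.1% lower. At P6w against E12.5 7 were higher and 7 lower, where 52.9% were called, 25.4% higher and 27.5% lower. Some of the 18, among them Itgax, Siglech and Cd3g, passed the filter on low counts only through P6w. This fixed their direction, so that these counts are a description only. Elane, neutrophil elastase, was at 4.35 and 2.32 CPM at E12.5 and 46.8 and 55.1 at E16.5 (log2 3.92, SE 0.25, adjusted p = 2.62e-08). Mpo, myeloperoxidase of the same lineage, rose by 2.44 at E16.5 (SE 0.18, adjusted p = 1.28e-07) and fell by 7.37 from E12.5 to P6w (SE 0.48, adjusted p = 5.62e-09). S100a9 and S100a8, calcium-binding proteins of neutrophils and monocytes, rose by 3.05 (SE 0.26, adjusted p = 4.77e-07) and 2.65 (SE 0.24, adjusted p = 7.42e-07) from E12.5 to E16.5. The part of neutrophil RNA in the Lyz2 and Ptprc levels at E16.5 was not tested.

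In the ESC cultures depth could be recovered from the steps of the FPKM values, so that single fragments could be counted. In E12.5_GC, Csf1r was at 5.03, 4.42 and 3.37 FPKM, C1qa at 10.2, 11.5 and 5.70, C1qb at 12.4, 15.7 and 7.28, and Lyz2 at 10.99, 11.5 and 4.27. Replicate 3 was the lowest of the 3 libraries for each of these 4 genes. Ptprc was at 0.147, 0.144 and 0.131 FPKM in E12.5_GC, or 47 to 75 fragments, on a length of 18313 bases that joins all its annotated exons and so lowers its FPKM. Cd68 was at 2.78, 2.85 and 3.37 FPKM there.

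Under V580 from day 4 to day 10, Ptprc, C1qa and C1qb had at most 4 fragments per library. Summed over the 3 libraries of a day, Ptprc had 2, 0, 1 and 0 fragments at days 4, 6, 8 and 10, C1qa had 6, 7, 1 and 1, and C1qb had 4, 2, 0 and 0. Lyz2 had 65, 72, 30 and 33 fragments, or group means of 0.697, 0.801, 0.295 and 0.374 FPKM, below every E12.5_GC library. The 10 macrophage markers other than Csf1r and Cd68 summed to 30.8 to 64.1 FPKM in E12.5_GC and to 0.240 to 1.60 FPKM over the V580 libraries of days 4 to 10, and 5 of them, Adgre1, C1qb, Cx3cr1, Ptprc and Tyrobp, were at 0 in every day 10 library.

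Csf1r and Cd68 were present in the same cultures. Csf1r was at 0.611, 0.488 and 0.487 FPKM at day 4, 0.791, 0.608 and 0.635 at day 6, 1.04, 1.18 and 1.08 at day 8, and 2.05, 1.55 and 1.29 at day 10. Days 4 and 6 overlapped, and days 8 and 10 each lay above all earlier days. Day 10 exceeded day 4 by 0.77 on the log2(FPKM + 1) scale (SE 0.11, limma adjusted p = 2.96e-05), in a comparison added after the data were seen, in which 64.5% of all tested genes were called. Every V580 library was below every E12.5_GC library, and the difference from E12.5_GC was -1.77 at day 4 (SE 0.11, adjusted p = 2.20e-09) and -1.31 at day 8 (SE 0.11, adjusted p = 1.09e-07), with a ratio of mean FPKM of 0.381 at day 10 (adjusted p = 1.72e-06).

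Cd68 lay above E12.5_GC at all 4 days. It was at 6.78, 6.43 and 6.67 FPKM at day 4, 4.33, 4.01 and 4.07 at day 6, 4.61, 4.37 and 4.71 at day 8, and 12.1, 8.68 and 9.93 at day 10. The difference from E12.5_GC was 0.93 (SE 0.09, adjusted p = 3.26e-07) at day 4, 0.36 (adjusted p = 0.00298) at day 6, 0.48 (adjusted p = 0.000392) at day 8 and 1.48 (adjusted p = 2.10e-09) at day 10. Its course was not monotonic, with days 6 and 8 lower than days 4 and 10. The markers named above at or near 0 were measured in the same libraries.

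In limma's test 5 of the 6 listed members passed the filter on low values, and Cd68 was higher and the other 4 lower than E12.5_GC at each day, where 71.6%, 67%, 63.2% and 69.5% of all tested genes were called at days 4, 6, 8 and 10 (37.2%, 35%, 32.6% and 36.3% higher, and 34.3%, 32%, 30.5% and 33.2% lower). C1qa, C1qb and Lyz2 reached 1 FPKM in 3 libraries only through E12.5_GC and so had to differ, whereas Csf1r also reached it at days 8 and 10 and Cd68 in every library, so that the count of lower members is a description only. The E12.5_GC values are shared by the 4 comparisons. Among the ligands, Csf1 was at 1.34 FPKM on average in E12.5_GC and 16.4, 7.83, 9.76 and 13.8 at days 4, 6, 8 and 10 (log2 2.90, 1.92, 2.20 and 2.67, the largest adjusted p being 4.22e-11). Kitl was at 119 FPKM in E12.5_GC and 2.14, 2.32, 3.21 and 6.55 at the 4 days (log2 -5.24, -5.16, -4.82 and -3.98).

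**Figure D4:**
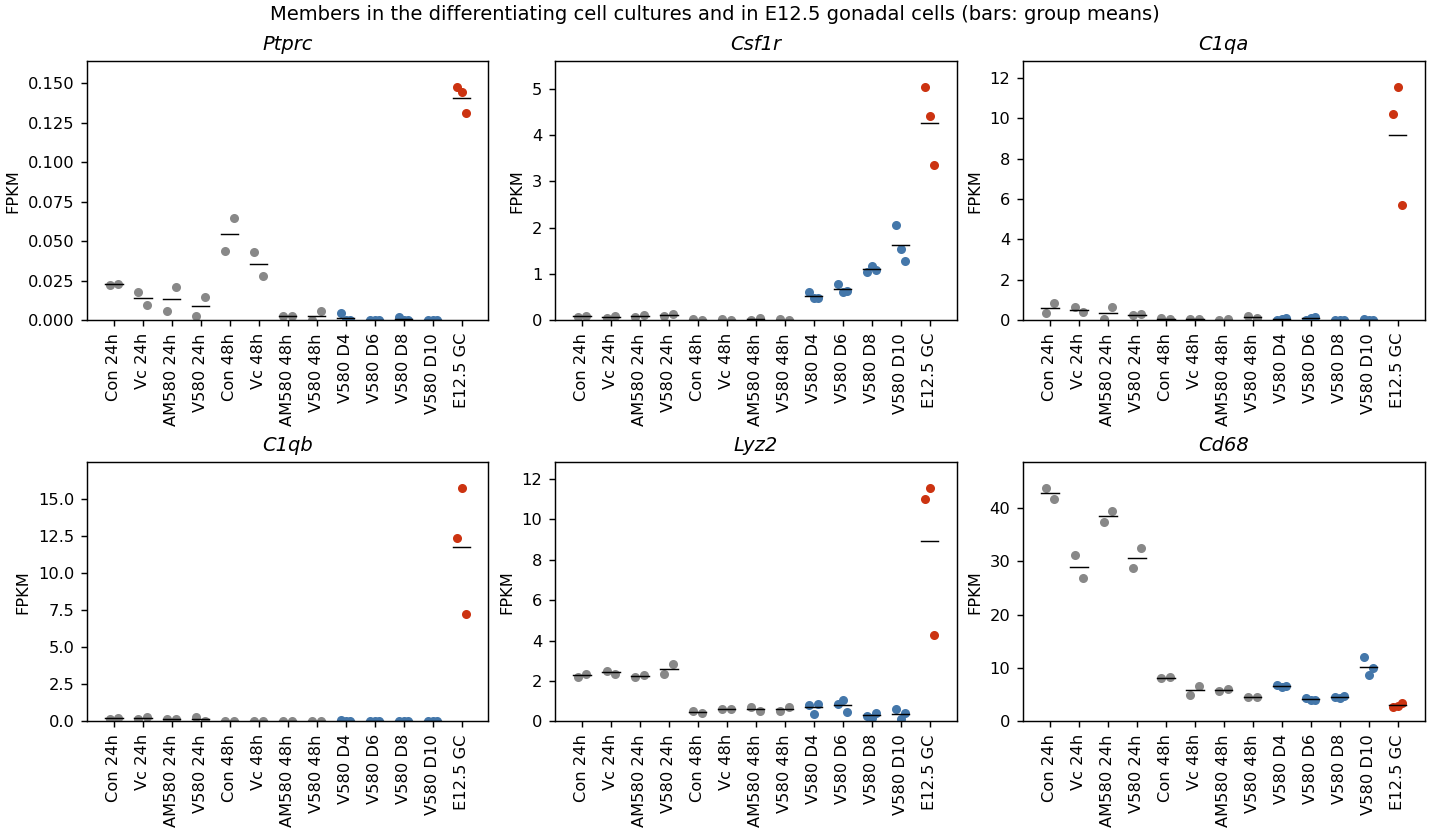
FPKM of the 6 listed members in the 31 libraries of the ESC cultures and E12.5_GC, on linear axes that start at 0. Grey points are 24 h and 48 h cultures, blue points V580 days 4 to 10, red points E12.5_GC, and bars are group means. C1qa, C1qb and Ptprc stand out in E12.5_GC, while Cd68 is highest in Con at 24 h with 43.7 and 41.6 FPKM.

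At 24 h and 48 h, Lyz2 and Cd68 passed the filter. Cd68 was at 43.7 and 41.6 FPKM in Con at 24 h, 31.1 and 26.9 in Vc, 37.4 and 39.4 in AM580, and 28.7 and 32.5 in V580. Vc and V580 were below Con by 0.55 (SE 0.10, adjusted p = 0.00183) and 0.47 (SE 0.10, adjusted p = 0.00185) on the log2 scale and did not overlap with it. The AM580 difference of -0.15 (SE 0.10, adjusted p = 0.354) did not pass, although its 2 libraries lay below both of Con. In these comparisons 1, 1 and 0 members were called with Vc, V580 and AM580, where 13.6%, 29% and 14.8% of all tested genes were called.

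At 48 h Cd68 was at 8.08 and 8.28 FPKM in Con, 4.98 and 6.68 in Vc, 5.67 and 6.00 in AM580, and 4.49 and 4.53 in V580. All 3 treated groups were below Con, by 0.44 with Vc (SE 0.10, adjusted p = 0.00785), 0.43 with AM580 (SE 0.10, adjusted p = 0.00155) and 0.74 with V580 (SE 0.10, adjusted p = 1.32e-05). The backgrounds called were 12.4%, 57% and 57.1%. Without Con replicate 2 or Vc replicate 1 the Vc difference was -0.42 (adjusted p = 0.0573) or -0.26 (adjusted p = 0.0935). Whether the AM580 and V580 effects differed between 24 h and 48 h was tested as an interaction, which came to -0.28 (SE 0.13, adjusted p = 0.128) and -0.27 (SE 0.13, adjusted p = 0.146), where 35% and 33.9% of all tested genes were called. For Vc it came to 0.11 (SE 0.13, adjusted p = 0.771), with 2.9% called.

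Cd68 fell from 24 h to 48 h in all 4 treatments, in comparisons added after the data were seen. Without compound it fell by 2.25 (SE 0.10, adjusted p = 3.24e-11), where 66% of all tested genes were called. In the Vc, AM580 and V580 cultures it fell by 2.14, 2.53 and 2.52 (largest adjusted p = 4.99e-11), against backgrounds of 67.7%, 65.7% and 66.8% called. Lyz2 reached 1 FPKM only in the 24 h libraries, and so had to differ between the hours to be tested at all. It was at 2.20 and 2.35 FPKM in Con at 24 h and 0.535 and 0.397 at 48 h, and its differences between treatments and Con lay between -0.01 and 0.15 with no adjusted p under 0.161. The 10 macrophage markers other than Csf1r and Cd68, which include Lyz2, summed to 3.13 to 4.12 FPKM at 24 h and 0.928 to 1.83 FPKM at 48 h over the 4 treatments. C1qa had 7 and 17 fragments in Con at 24 h and 2 and 1 at 48 h. It did not reach the filter, and without that filter its difference was -0.57 (adjusted p = 0.0166).

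Ptprc was measured at a few fragments per library. In Con it had 16 and 25 at 48 h, against 17 and 9 with Vc, 1 and 1 with AM580, and 0 and 2 with V580. It did not reach the filter on low values, and without that filter the differences from Con at 48 h were -0.07 with AM580 (adjusted p = 0.0127) and -0.07 with V580 (adjusted p = 0.013) on the log2(FPKM + 1) scale, on which values so close to 0 hardly move.

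In the 10x table, 15315 of 15412 barcodes met the limits the study states, 200 genes or more and no more than 40% mitochondrial counts, with a median of 9281 UMIs. With 1 sample there is no test, and the intervals below cover counting error only. Ptprc, C1qa, C1qb, Tpsb2 and Cpa3 had 0 UMIs in the 15315 cells, which allows a share of up to 0.0196% of cells with a UMI. Lyz2 had 6 UMIs in 4 cells and Cma1 had 3 UMIs in 3 cells. The mast cell markers Mcpt4 and Fcer1a also had 0 UMIs, whereas Kit had UMIs in 7.89% of cells and Ms4a2 in 30 cells.

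Csf1r and Cd68 were again the exceptions. Csf1r had 275 UMIs (exact 95% Poisson interval 243 to 309) in 210 cells, 1.37% of all cells (exact binomial interval 1.19 to 1.57). Cd68 had 1441 UMIs in 995 cells, 6.50% (6.11 to 6.90). Both were seen in 64 cells, which is 30.5% of the cells with Csf1r and 6.43% of those with Cd68. Of all cells, 14170 held no UMI of any member, 1078 held UMIs of 1 and 67 of 2.

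Shares were larger in deeper cells. In the shallowest of 4 equal groups of cells (median 1248 UMIs) Csf1r was seen in 0.340% and Cd68 in 1.28%, and in the deepest group (median 20734 UMIs) in 3.87% and 15.7%. From the shallowest to the deepest of the 4 groups, the levels were 2.57, 1.46, 0.541 and 2.28 CPM for Csf1r and 9.90, 8.18, 5.39 and 10.7 CPM for Cd68, so that they were not even across depth and were lowest in the group with a median of 12545 UMIs. Thinned to 2000 UMIs per cell, which left 11515 cells and dropped 3800 shallower ones, the shares were 0.330% for Csf1r and 1.32% for Cd68.

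Cells were clustered without the 9 members, which gave 12 clusters, named here by number and left without a cell type because markers of several types met in them. Doublets were not removed. Cluster 9, with 927 cells (median 22755 UMIs) led by Rbp4, Srgn, Pitx1 and S100g, held 104 of the 210 cells with Csf1r, or 11.2% of its cells (9.26 to 13.4), at 6.32 CPM of UMIs (5.34 to 7.44). Cluster 8, of similar depth (1749 cells, median 17694 UMIs, led by Mki67, Aspm and Cenpf), had Csf1r in 0.400% of cells, at 0.214 CPM (0.0861 to 0.441). Cluster 0, with 3391 cells led by Igfbp5 and Upk3b, had 0.345 CPM (0.193 to 0.570). The intervals of clusters 0 and 8 did not reach that of cluster 9.

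A pair of smaller clusters held Csf1r at like levels from shallower cells. Cluster 7 (659 cells, median 3005 UMIs, led by Rhox9, Sct and Rhox6) had 7.84 CPM (5.84 to 10.3), and cluster 11 (276 cells, median 2376.5 UMIs, led by Lama1 and Tinagl1) had 9.90 (4.53 to 18.8), from 9 UMIs. The intervals of clusters 7, 9 and 11 overlapped. Cluster 9 carried 2 of the 12 macrophage markers in at least 10% of cells, namely Csf1r and Cd68, along with 5 of 7 granulosa, 5 of 6 interstitial and 5 of 7 extraembryonic endoderm markers. The summed levels of these 3 lists in cluster 9 were 387, 202 and 1333 CPM in the same order. In cluster 8, of similar depth, they were 362, 451 and 172 CPM. Kit, which mast cells share with germ cells and other progenitors, was seen in 59.4% of the cells of cluster 9, and the endoderm factor Sox17 in 81.4%.

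Cd68 was spread more widely. It was at 42.0 CPM (37.1 to 47.3) in cluster 7, 17.1 (15.3 to 19.1) in cluster 1 (led by Wfdc2, Stra8 and Cldn3), 12 (from 277 UMIs) in cluster 9, and 3.55 (2.93 to 4.26) and 4.26 (3.67 to 4.92) in clusters 8 and 0. Clusters 8 and 0 overlapped in their intervals, and clusters 7 and 1 stood apart from each other and from cluster 9. No cluster had more than 2 of the 12 macrophage markers or more than 1 of the 8 mast cell markers in at least 10% of its cells.

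**Figure D5:**
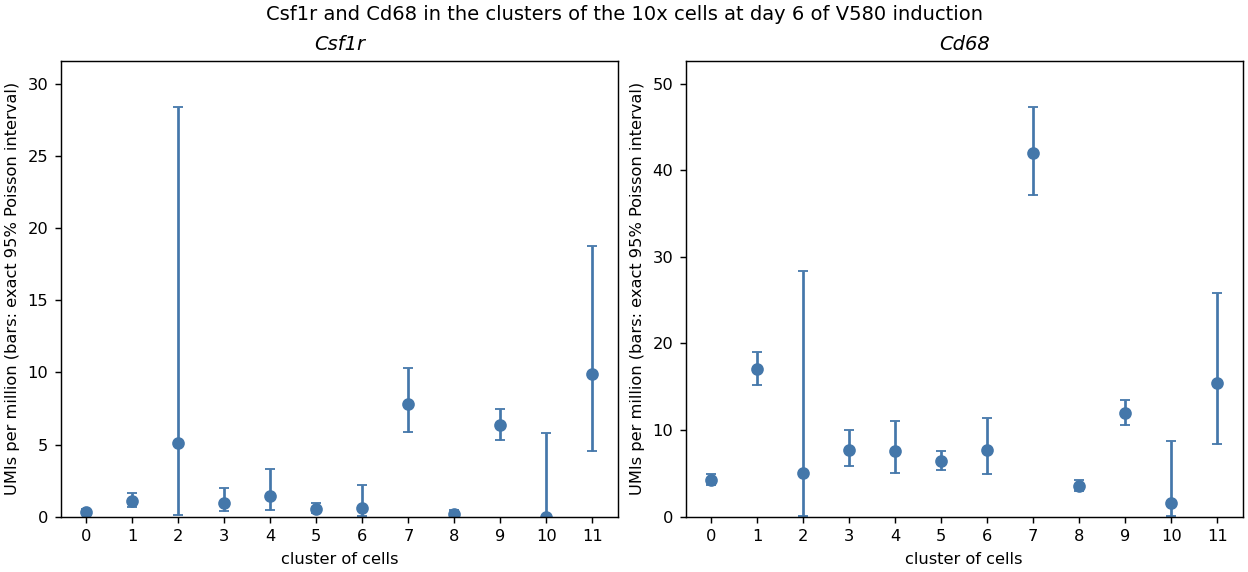
UMI level (CPM) of Csf1r and Cd68 in each of the 12 clusters of 10x cells at day 6 of V580, with exact 95% Poisson intervals that cover counting error only. Csf1r is highest in clusters 7, 9 and 11, and Cd68 in cluster 7 at 42.0 CPM. Clusters 2 and 10 hold 26 and 66 cells and have wide intervals.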

How the data were processed

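Members and gene lists were chosen with earlier results of these data known. Per the study's methods and the submitters' processing notes (Trim Galore, FastQC, HISAT2, SAMtools, featureCounts, RSEM, mm10; no versions given), the authors aligned reads of the GSC stages and deposited raw counts per gene symbol, and deposited FPKM values per gene for the cultures and E12.5_GC. In the FPKM table the Vc and AM580 columns of 24 h and 48 h are headed C and X580, and were matched to those groups from these shortened names, which is a limit of their values. The deposited 10x table holds UMI counts per barcode, made with Cell Ranger (mm10). Another table with 10 value columns, whose names match no sample label, and 8 samples of germ cells were not analysed here.

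Counts were tested with edgeR 4.0.16 (R 4.3.3; TMM, low counts filtered, quasi-likelihood, all 8 libraries in 1 fit) and FPKM with limma 3.58.1 on log2(FPKM + 1) for genes at 1 FPKM or more in at least 3 (days) or 2 (24 h and 48 h) libraries, so that low genes' changes are understated. P-values were adjusted by Benjamini-Hochberg over all genes tested and called at 0.05. Fragments were recovered from FPKM steps, with 95.8% to 97.2% of values under 20 fragments whole within 0.02. RPKM used the longest coding transcript (GENCODE annotation of GRCm38). Cells were clustered with scanpy 1.11.5 (2000 variable genes, 20 components, Leiden resolution 0.5). Scripts were tested on simulated data.

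Beside the 9 members and the ligands Csf1, Il34 and Kitl, up to 4 genes per list were named, those with the largest change from E12.5 at E16.5 or P6w among called genes with at least 5 CPM and no overlap. A gene that this rule names is not reported here. C1qc, Tpsab1, Mcpt4, Fcer1a, Ms4a2, Kit and Sox17 were named as neighbours, paralogues or markers, and others because the filter fixed their direction. Alternatives were DESeq2 1.42.0, RLE size factors, no filter, a 2-fold limit, fits of 2 stages, lane, length and replicate terms, a pseudocount of 0.1, other cell filters, thinning, and leaving out each library. Comparisons of day 10 with day 4 and of 48 h with 24 h, the interactions, the fragments and the marker sums without Csf1r and Cd68 were added after the data were seen.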

Additional observations from a re-analysis of the deposited data

How the results depend on the processing

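Few or no counts limited Ptprc in all tables, Tpsb2 at E12.5 and Cpa3 at P6w, and 2 libraries per stage limited all stage tests. Over the alternatives, 199 counts of called members and shares of cells held and 30 moved, and for single genes 1506 values held, 4 gained a call, 56 lost one and 19 changed sign. For E13.5 against E12.5, 3 members were called with the 2-fold limit and 3 with the length term. With the 2-fold limit 0 members were called for day 10 against day 4, for Vc and V580 at 24 h, and for Vc, AM580 and V580 at 48 h. Without the filter 2 were called for AM580 and 2 for V580 at 48 h, and 5 each for 48 h against 24 h in Con and in Vc. Thinned 10x shares were 0.330% for Csf1r, 1.32% for Cd68, and 0 for Lyz2 and Cma1. Leaving out 1 library gave 3 to 5 called members for V580 against E12.5_GC at each of days 4, 6, 8 and 10, where 3 instead of 5 members were tested without an E12.5_GC library, and 0 to 1 for Vc against Con at 48 h. Other than by construction, the cause of these changes was not tested.

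These signs changed. Ptprc between E13.5 and E12.5 was 4.74e-05 with RLE size factors, 0.89 with the length term, and ranged from -0.41 to 0.52 with 1 library left out (0.52 and 0.27 without E12.5 or E13.5 replicate 2). Csf1r there was 0.0707 with the length term and -0.34 to 0.0571 with 1 library left out (highest without E13.5 replicate 2), and Cd68 was -0.0413 with the length term. Between E16.5 and E13.5, Cd68 was -0.00869 with lane and -0.00234 to 0.62 with 1 library left out (lowest without E16.5 replicate 2), and with the length term C1qa was 0.12 and C1qb 0.47. Tpsb2 between P6w and E13.5 was 0.23 with the length term and -0.93 to 0.58 with 1 library left out (highest without E13.5 replicate 1), and Ptprc between P6w and E16.5 was -0.19 to 0.38 (lowest without E16.5 replicate 2). The Lyz2 log2 fold change, AM580 vs Con 24 h, was -0.0458 to 0.0192 with 1 library left out (0.0192 without Con replicate 2 and 0.00731 without AM580 replicate 1). The Kitl log2 fold change, E16.5 vs E12.5, was -0.0233 with lane and -0.0247 to 0.0527 with 1 library left out (negative without E12.5 or E16.5 replicate 2). DESeq2 changed no member's call.

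Replicate numbers did not pair the samples: deviations of same-numbered stage libraries correlated at -0.0897 to 0.162, those of 30 same-numbered pairs among the days and E12.5_GC at -0.431 to 0.386 (9 over 0.1), and those of 56 pairs among the treatments at -0.424 to 0.209 (14 over 0.1). With the replicate number as a block, 7, 7 and 8 members were called for E13.5, E16.5 and P6w against E12.5, and no member's call changed in any comparison.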
